A study of Homo sapiens with 4 samples.

Results

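The G1 cyclins, the cyclin-dependent kinases they activate and the inhibitors of those kinases were described in MCF10AT cells, a human mammary epithelial line transformed by HRasG12V. The 10 genes were taken by symbol from the 58233 genes of the count table: the D-type cyclins CCND1, CCND2 and CCND3, the E-type cyclins CCNE1 and CCNE2, the kinases CDK4 and CDK6, and the inhibitors CDKN1B, CDKN1C and CDKN2C. RNA-seq compared 2 libraries with the genotype Bromo+/- to 2 libraries of a non-target control. Both were grown with horse serum, cholera toxin, hydrocortisone, insulin and epidermal growth factor. The labels do not spell out the name Bromo+/-. The protocol given for all 4 samples describes lentiviral shRNA and puromycin selection, and the design text speaks of EP300 shRNAs in triplicate, whereas the genotype of these samples names neither an shRNA nor EP300. No label says that replicates came from separate cultures, and the column names of each group share a further number that nothing explains, so a group may be a single clone. The p-values therefore reflect the spread between libraries alone, which may be technical.

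The libraries labelled Bromo+/- held 11975396 and 10953756 counts, and the control libraries 10835237 and 11884715. EP300, the acetyltransferase gene in the title of the series, stood at 121 and 126 CPM (counts scaled to library size) in libraries labelled Bromo+/- and at 106 and 111 CPM in control libraries. It was thus slightly higher (log2 fold change 0.19, adjusted p = 0.00701 in edgeR's quasi-likelihood test), a call kept in 9 of 12 alternative settings. Lowered EP300 RNA therefore does not check the label. Summed over 7 markers of basal mammary epithelium, the libraries labelled Bromo+/- held 1674.4 and 1649.8 CPM and the controls 7720.9 and 7482.3 CPM. Over 5 general and luminal epithelial markers the sums were 538 and 513 CPM in libraries labelled Bromo+/- and 3958.4 and 3887.8 CPM in control libraries. Over 8 fibroblast markers they were 88.5 and 86.3 CPM in libraries labelled Bromo+/- and 4.48 and 3.71 CPM in control libraries, mostly from DCN and COL1A1, while COL3A1 and LUM had no count in any library. Over 6 leukocyte markers they were 5.04 and 4.42 CPM in libraries labelled Bromo+/- and 14.3 and 13.0 CPM in control libraries, with CD3E at 0 in every library. Over 4 endothelial markers they were 3.34 and 3.80 CPM in libraries labelled Bromo+/- and 4.48 and 2.93 CPM in control libraries, with VWF at 0. The part of these marker differences in the results below was not tested, and in bulk RNA fewer cells of a type and less RNA per cell cannot be told apart.

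D-type cyclins accumulate in response to growth factors and activate CDK4 and CDK6, which phosphorylate the retinoblastoma protein and so release E2F transcription factors. E2F activates the genes of E-type cyclins, which with CDK2 complete that phosphorylation and start S phase. INK4 inhibitors, such as the p18 protein of CDKN2C, bind CDK4 and CDK6, whereas CIP/KIP inhibitors, such as the p27 protein of CDKN1B and the p57 protein of CDKN1C, bind cyclin-CDK2 complexes. RAS signalling is known to raise cyclin D1, and MCF10A cells are known to lack the INK4 genes of 9p21. Much of the control of these proteins is by phosphorylation and degradation, which RNA does not show.

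The G1 genes moved in both directions. Of the 10 genes, 8 had enough counts to be tested. CDKN2C, CCNE2 and CCNE1 rose, CDK6 and CCND1 fell, and CCND3, CDK4 and CDKN1B did not pass the threshold. CCND2 had no count and CDKN1C too few. Differences are log2 fold changes of Bromo+/- over control from edgeR's quasi-likelihood test, with the standard error (SE) of the fit, and a gene is called at a Benjamini-Hochberg adjusted p under 0.05. The 5 calls among 8 tested genes stand against 53.5% of all 13179 tested genes that were called (26.4% higher and 27.1% lower), so that share is near the background. The groups did not overlap for 7 of the 8, against 75.2% of all tested genes. The 8 genes had a median log2 fold change of -0.01, against 0.01 over all tested genes. When libraries were scaled by their totals alone, 4430 genes were higher and 2800 lower in place of 3485 and 3570, and the median of all genes moved by 0.08.

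**Figure D1:**
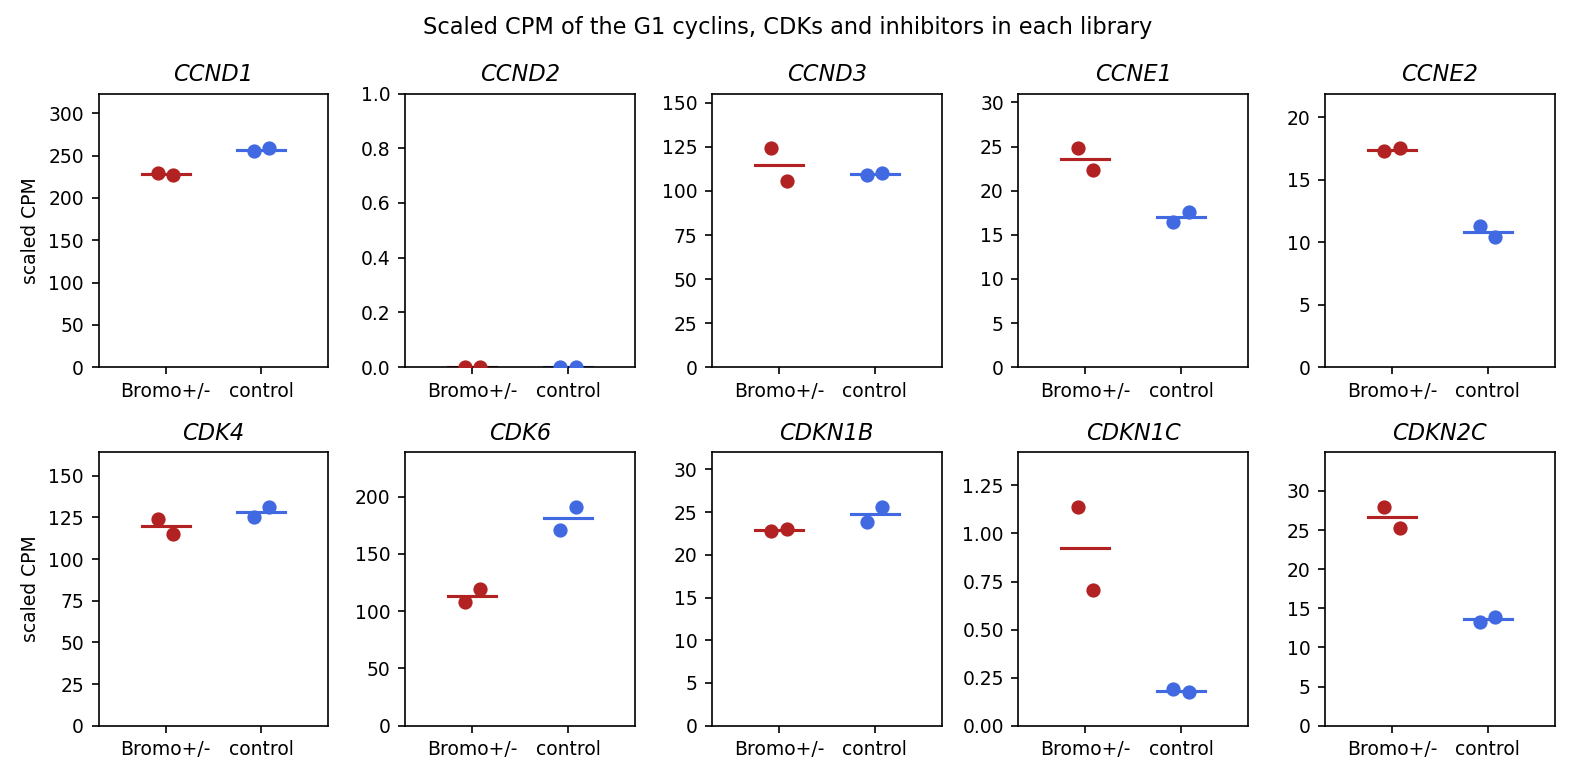
Scaled CPM of each G1 gene in the 2 Bromo+/- libraries (left, red) and the 2 non-target control libraries (right, blue). Each panel has its own axis from 0, points are libraries and lines are group means. CDKN2C, CCNE1 and CCNE2 lie higher in the Bromo+/- libraries, CDK6 and CCND1 lie lower, and CCND2 is at 0 throughout.

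Promoter sequence was available for 6 of the 10 genes, as 11 stretches of 250 bases before to 50 bases after an annotated start (RefSeq, GRCh38.p14). Shown 5′ to 3′ on the strand of the gene are 2 of the 3 stretches of CDKN2C, the gene with the largest rise, the 1 of CCNE1, the E-type cyclin with a listed promoter, and 1 of the 2 of CDK6, the kinase that fell. The third start of CDKN2C (1 GC box and 1 E-box) and the other start of CDK6 (0 of either) are not shown. Capitals mark GC boxes (GGGCGG on either strand, the core that SP1 and related factors bind) and E-boxes (CACGTG, the core that MYC and related factors bind), and overlapping matches run together.
CDKN2C upstream start, chr1:50960495-50960794, plus strand: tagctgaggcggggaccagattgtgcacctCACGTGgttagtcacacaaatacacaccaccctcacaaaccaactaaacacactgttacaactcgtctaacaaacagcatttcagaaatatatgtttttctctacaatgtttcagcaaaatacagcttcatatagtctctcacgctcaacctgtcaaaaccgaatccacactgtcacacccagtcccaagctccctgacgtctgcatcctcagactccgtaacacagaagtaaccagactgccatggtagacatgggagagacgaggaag
CDKN2C next start, chr1:50968456-50968755, plus strand: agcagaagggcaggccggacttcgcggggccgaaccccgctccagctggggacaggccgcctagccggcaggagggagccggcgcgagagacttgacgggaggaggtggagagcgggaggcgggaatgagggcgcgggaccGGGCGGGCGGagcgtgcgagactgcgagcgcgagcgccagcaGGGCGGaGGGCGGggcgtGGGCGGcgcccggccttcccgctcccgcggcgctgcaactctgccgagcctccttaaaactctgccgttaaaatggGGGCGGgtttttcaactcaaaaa
CCNE1, chr19:29811741-29812040, plus strand: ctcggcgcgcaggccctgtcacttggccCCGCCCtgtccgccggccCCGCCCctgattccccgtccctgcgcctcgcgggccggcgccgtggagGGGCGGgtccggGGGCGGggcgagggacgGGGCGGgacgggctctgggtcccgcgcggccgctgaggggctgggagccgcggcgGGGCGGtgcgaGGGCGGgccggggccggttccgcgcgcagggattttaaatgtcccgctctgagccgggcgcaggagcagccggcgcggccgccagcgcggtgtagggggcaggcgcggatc
CDK6, chr7:92836524-92836823, minus strand: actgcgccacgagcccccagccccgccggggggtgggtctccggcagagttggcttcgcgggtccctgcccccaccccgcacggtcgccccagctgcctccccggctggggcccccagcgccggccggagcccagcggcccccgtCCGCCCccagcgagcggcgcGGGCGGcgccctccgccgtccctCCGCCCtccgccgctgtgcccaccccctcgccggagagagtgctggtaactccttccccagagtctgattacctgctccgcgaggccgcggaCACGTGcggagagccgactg

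The upstream start of CDKN2C differed from the other 3 stretches, with 46.3% G and C, no GC box and 1 E-box, whereas the next start had 71.3% G and C and 6 GC boxes. The CCNE1 promoter held 7 GC boxes at 81.0% G and C, and the CDK6 stretch shown held 3 GC boxes and 1 E-box at 78.0%. Over all 11 stretches, a GC box occurred in 8 (6 genes), against 45.0% of the 35116 promoters of the table. An E-box occurred in 4 (3 genes), against 7.26%. Starts of the same gene were counted separately here. The E2F motif searched for, TTTNNCGC on either strand, occurred in none of the 11 and in 6.89% of all promoters. A FOXO motif, GTAAACA, occurred in 1 of them, at CCND3, against 3.42%. None of the 11 held an AP-1 motif (TGANTCA, 7.71% of all), a CRE (TGACGTCA, 1.85%), a TATA box (TATAAA, 11.5%) or a CHR element (TTTGAA, 15.2%). These matches describe letters in short windows. Counts per gene do not show which start of CDKN2C was used.

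Among the D-type cyclins CCND1 was the most abundant and fell slightly. CCND1 encodes cyclin D1, the main D-type cyclin of breast epithelium (ENSG00000110092, chromosome 11, 69641087 to 69654474, coordinates of the deposited table on GRCh38). It stood at 229 and 227 CPM in libraries labelled Bromo+/-, against 255 and 259 CPM in control libraries. Both Bromo+/- libraries lay below both controls, and the log2 fold change was -0.17 (SE 0.05, adjusted p = 0.00348 in edgeR's quasi-likelihood test), or 0.887-fold with a 95% interval of 0.825 to 0.954. That call ended without control replicate 2 (adjusted p = 0.0738) and under 2 scalings, by upper quartile (-0.11, adjusted p = 0.0637) and by library totals alone (-0.09, adjusted p = 0.146). Exons of LTO1 on the opposite strand cover 10.3% of the exon bases of CCND1, and LTO1 itself did not pass (-0.18, adjusted p = 0.105).

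CCND3, the cyclin D3 gene (ENSG00000112576, chromosome 6, 41934933 to 42050357), stood at 124 and 106 CPM in libraries labelled Bromo+/- and at 109 and 110 CPM in control libraries. The 2 Bromo+/- libraries lay on either side of the controls, and the log2 fold change of 0.07 did not pass (SE 0.06, 95% interval -0.05 to 0.20, adjusted p = 0.352). The value depended on which Bromo+/- library was kept: it was 0.18 without replicate 2 (adjusted p = 0.0152) and -0.05 without replicate 1 (adjusted p = 0.551). Scaling by library totals alone also brought it past the threshold (0.15, adjusted p = 0.0351).

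CCND2, the cyclin D2 gene (ENSG00000118971, chromosome 12, 4273772 to 4305350), had 0 counts in all 4 libraries. Taking 3 counts as the most that a count of 0 allows, its level was at most 0.244 and 0.265 CPM in libraries labelled Bromo+/- and 0.286 and 0.259 CPM in control libraries. These floors, like the counting intervals below, cover counting error only. TIGAR, a fructose bisphosphatase gene 2.4 kb away, had 575 and 559 counts in libraries labelled Bromo+/- and 400 and 438 in control libraries. At this depth the D-type cyclin counts came from CCND1 and CCND3.

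Of the 2 kinases CDK6 fell and CDK4 was not called. CDK6 (ENSG00000105810, chromosome 7, 92604921 to 92836594) stood at 108 and 119 CPM in libraries labelled Bromo+/-, against 171 and 191 CPM in control libraries. The groups did not overlap, and the spread within each was smaller than the gap between them. The log2 fold change was -0.68 (SE 0.06, adjusted p = 1.22e-22, edgeR), a level 0.626-fold that of the controls (95% interval 0.577 to 0.680). It lay between -0.76 and -0.59 over the 12 alternatives and was called in all of them. CDK6 ranked 3036 among the 13179 tested genes by size of change. The antisense gene CDK6-AS1, which overlaps 0.661% of the exon bases of CDK6, had at most 3 counts in any library.

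CDK4, the other kinase partner of the D-type cyclins (ENSG00000135446, chromosome 12, 57747727 to 57756013), stood at 124 and 115 CPM in libraries labelled Bromo+/- and at 125 and 131 CPM in control libraries. The Bromo+/- libraries lay just below the controls, and the log2 fold change of -0.10 did not pass (SE 0.06, 95% interval -0.22 to 0.02, adjusted p = 0.159). Without Bromo+/- replicate 1 it was -0.16 and passed (adjusted p = 0.0383). Exons of TSPAN31 on the opposite strand cover 43.2% of the exon bases of CDK4, which leaves its level uncertain, since the kit kept strand but the setting of the counting is not stated. TSPAN31 had 211 and 174 counts in libraries labelled Bromo+/- and 200 and 169 in control libraries.

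Both E-type cyclin genes rose. CCNE1, which encodes cyclin E1, an activator of CDK2 (ENSG00000105173, chromosome 19, 29811898 to 29824308), stood at 24.8 and 22.4 CPM in libraries labelled Bromo+/-, against 16.5 and 17.6 CPM in control libraries. Its log2 fold change was 0.47 (SE 0.11, adjusted p = 0.000105, edgeR), or 1.38-fold with a 95% interval of 1.19 to 1.61. CCNE2, the cyclin E2 gene (ENSG00000175305, chromosome 8, 94879770 to 94896678), stood at 17.2 and 17.5 CPM in libraries labelled Bromo+/-, against 11.3 and 10.4 CPM in control libraries. Its log2 fold change was 0.68 (SE 0.13, adjusted p = 1.54e-06, edgeR), or 1.60-fold (95% interval 1.34 to 1.92). For both genes every Bromo+/- library lay above every control, and both were called under all 12 alternatives, with log2 fold changes of 0.39 to 0.55 for CCNE1 and 0.62 to 0.76 for CCNE2. The 2 intervals overlap widely, so the data do not separate the size of the 2 rises. Exons of INTS8 on the opposite strand cover 37.0% of the exon bases of CCNE2, and INTS8 did not pass (0.02, adjusted p = 0.868).

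Among the inhibitors CDKN2C had the largest rise of the tested G1 genes. It encodes p18, an INK4 protein that binds CDK4 and CDK6 (ENSG00000123080, chromosome 1, 50960745 to 50974633). It stood at 28.0 and 25.3 CPM in libraries labelled Bromo+/-, against 13.3 and 13.9 CPM in control libraries. The gap between the groups was several times the spread within either, and the log2 fold change was 0.97 (SE 0.11, adjusted p = 7.60e-15, edgeR), or 1.96-fold with a 95% interval of 1.68 to 2.29. It lay between 0.89 and 1.06 over the 12 alternatives and was called in all. By size of change CDKN2C ranked 2052 among the tested genes, of which 15.1% changed by 1 or more on the log2 scale. FAF1, whose highest annotated coordinate lies 0.482 kb below the lowest of CDKN2C, fell slightly (-0.21, adjusted p = 0.00502).

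CDKN1B, the p27 gene (ENSG00000111276, chromosome 12, 12715058 to 12722371), stood at 22.8 and 23.1 CPM in libraries labelled Bromo+/- and at 23.8 and 25.6 CPM in control libraries. The log2 fold change of -0.11 did not pass (SE 0.10, adjusted p = 0.368) and was called under none of the 12 alternatives. Both Bromo+/- libraries lay below both controls, and the 95% interval ran from 0.805-fold to 1.06-fold.

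CDKN1C, the p57 gene of the imprinted region at 11p15 (ENSG00000129757, chromosome 11, 2883213 to 2885881), was near the limit of detection and outside the test. It had 14 and 8 counts in libraries labelled Bromo+/- and 2 and 2 counts in control libraries, both control values under the floor of 3 counts per library. Pooled per group, 22 counts in Bromo+/- against 4 in control gave a ratio of 5.14 (95% exact binomial interval 1.75 to 20.5, counting error only). Without the filter on low counts the fitted log2 fold change was 2.28 (SE 0.69, adjusted p = 0.00432, edgeR). With 1 library left out, CDKN1C passed the filter in 3 of the 4 fits, by way of the higher Bromo+/- counts, and was not tested without Bromo+/- replicate 1. No call is read from those fits. H19, a non-coding RNA gene of the same region, had 10 and 4 counts in libraries labelled Bromo+/- and 1 and 1 in control libraries. KCNQ1OT1, the antisense RNA whose start controls imprinting there, did not pass (75 and 95 counts in libraries labelled Bromo+/-, 83 and 91 in control libraries). Of 7 tested genes in a list of 10 from that region, PHLDA2 fell (-0.69, adjusted p = 1.40e-14), CD81 rose (0.19, adjusted p = 0.000952) and NAP1L4, SLC22A18, TSSC4, KCNQ1OT1 and CARS1 did not pass (28.6% called, beside 53.5% of all tested genes). The call for CD81 ended without control replicate 2 (adjusted p = 0.124), and TSSC4 was called lower without Bromo+/- replicate 1 (adjusted p = 0.0159). KCNQ1 and IGF2 had 1 count each in all.

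**Figure D2:**
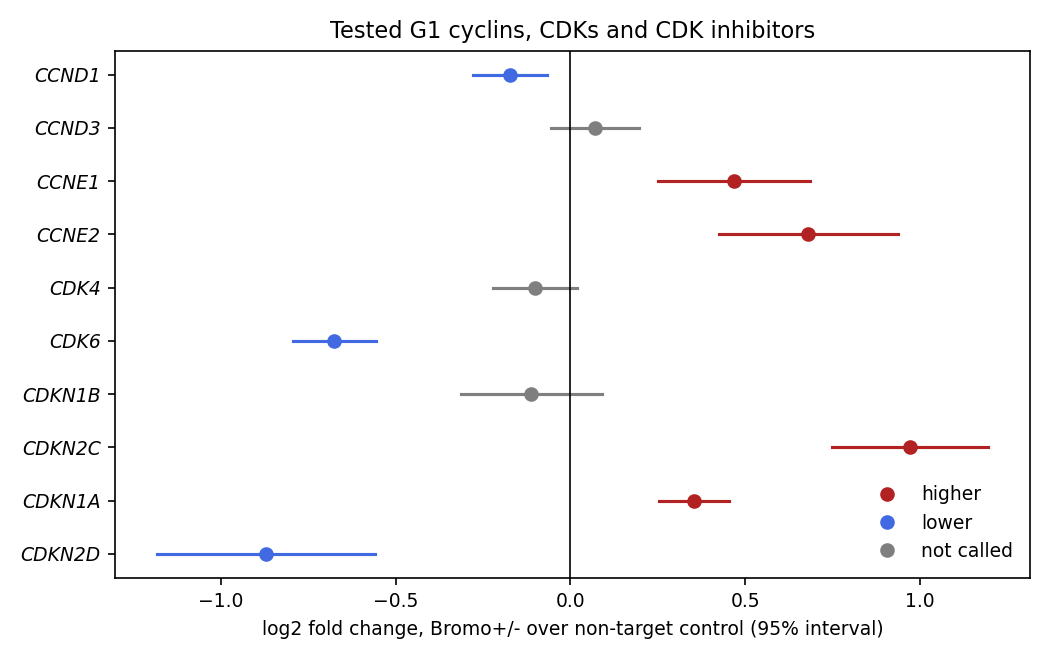
Log2 fold change of Bromo+/- over non-target control (x axis) with its 95% interval for the 8 tested G1 genes and for CDKN1A and CDKN2D, 2 further CDK inhibitors. Red marks genes called higher, blue genes called lower and grey genes not called. CDKN2C (0.97) and CDKN2D (-0.87), both INK4 genes, lie at opposite ends.

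The other 4 INK4 and CIP/KIP genes were read beside these. CDKN2D, which encodes the INK4 protein p19, went the opposite way to CDKN2C. It stood at 6.92 and 6.01 CPM in libraries labelled Bromo+/-, against 11.2 and 12.5 CPM in control libraries (log2 fold change -0.87, SE 0.16, adjusted p = 4.43e-07, edgeR). CDKN1A, which encodes p21, the CIP/KIP inhibitor induced by p53, stood at 608 and 563 CPM in libraries labelled Bromo+/- and at 461 and 456 CPM in control libraries (log2 fold change 0.35, SE 0.05, adjusted p = 1.84e-10). Both kept these calls under all 12 alternatives.

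CDKN2A and CDKN2B, the INK4 genes of 9p21, had 0 counts in all 4 libraries, with the same floors as CCND2. The gene next to them, MTAP, which encodes a purine salvage enzyme made by most cells, had 2 and 6 counts in libraries labelled Bromo+/- and 1 and 2 in control libraries. Of 66 annotated genes within 1500 kb of CDKN2A, 49 had no count in any library and 3 had 100 counts or more over the 4 libraries. These 3 were KLHL9, an adaptor of a ubiquitin ligase 632 kb away, with 747 and 671 counts in libraries labelled Bromo+/- and 426 and 539 in control libraries, FOCAD (998 and 910 in Bromo+/-, 1029 and 1205 in control) and MLLT3 (137 and 122 in Bromo+/-, 59 and 56 in control). Most of the genes listed between KLHL9 and MTAP are interferon genes and pseudogenes. On the far side DMRTA1, 452 kb away, had 36 and 31 counts in libraries labelled Bromo+/- and 22 and 8 in control libraries. Both groups showed this stretch of few counts around the 9p21 inhibitors, and copy number was not measured.

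**Figure D3:**
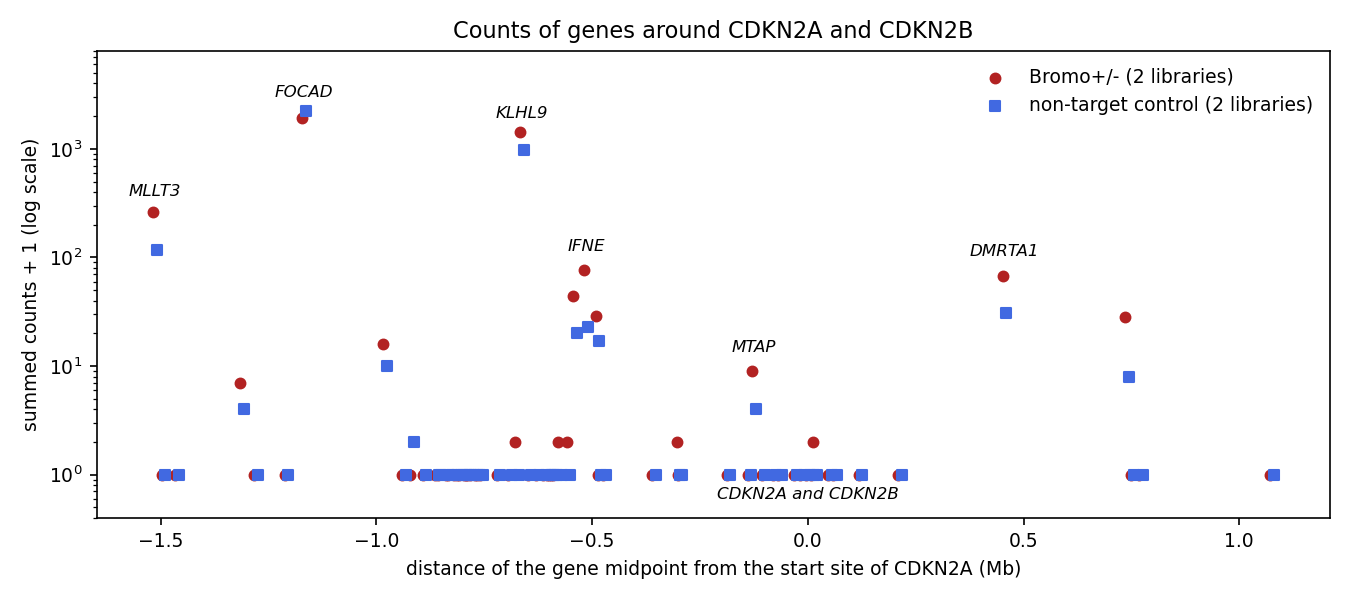
Counts of annotated genes within 1500 kb of CDKN2A, summed over the 2 libraries of a group plus 1 (log axis), against the distance of each gene's midpoint from the start of CDKN2A in megabases. Red circles are Bromo+/-, blue squares are non-target control. CDKN2A and CDKN2B are at 0 counts in both groups, and MTAP has 8 counts in Bromo+/- and 3 in control libraries.

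Levels of different genes were compared per length, as TPM, a level scaled by the exon length of each gene and by library. CCND1 led in both groups with 172 ± 0.995 TPM in libraries labelled Bromo+/- and 186 ± 4.18 TPM in control libraries (mean ± SD, n = 2 each, here and below). CDK4 followed with 138 ± 5.21 TPM in Bromo+/- and 142 ± 6.70 TPM in control, then CCND3 with 72.2 ± 7.20 TPM in Bromo+/- and 66.0 ± 1.45 TPM in control. These 3 stood apart from each other by more than their spread. That spread does not cover exon bases shared with genes on the opposite strand: 43.2% for CDK4, 37.0% for CCNE2 and 10.3% for CCND1. How reads there were counted is not stated, so the places of these genes, and the shares and ratios below that use them, are uncertain. CDK6 came next with 33.8 ± 2.81 TPM in libraries labelled Bromo+/- and 51.7 ± 4.70 TPM in control libraries. In the controls CDK6 was followed by CDKN1B (30.8 ± 1.99), CCNE1 (23.4 ± 1.39), CDKN2C (14.3 ± 0.669) and CCNE2 (8.62 ± 0.339), each below its neighbour by more than their spread. In the libraries labelled Bromo+/- the TPM of CDK6, CCNE1 (33.7 ± 2.00), CDKN1B (29.7 ± 0.687) and CDKN2C (29.2 ± 1.69) came together, and CDK6 did not differ from CCNE1, nor CDKN1B from CDKN2C, beyond that spread. CCNE2 (14.4 ± 0.353) remained lower. CDKN1A, at 699 ± 28.4 TPM in libraries labelled Bromo+/- and 525 ± 2.74 TPM in control libraries, exceeded them all.

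The share of each gene within its group differed by at most 3.33 percentage points between group means for the cyclins. The mean share of CDKN1B differed by -18.5 points (Bromo+/- minus control), while its own mean TPM was 29.7 in Bromo+/- and 30.8 in control. CDKN2C, in the same sum, had a mean of 29.2 TPM in Bromo+/- and 14.3 TPM in control. CDKN1B held 47.7% and 51.0% of the summed TPM of CDKN1B, CDKN1C and CDKN2C in libraries labelled Bromo+/-, against 67.6% and 68.2% in control libraries. CDKN2C held 49.7% and 47.3% in Bromo+/- and 31.8% and 31.3% in control. CDK6 held 18.4% and 21.1% of the summed TPM of CDK4 and CDK6 in libraries labelled Bromo+/-, against 26.1% and 27.3% in control libraries. CCND1 held 68.9% and 72.0% of the D-type sum in Bromo+/- and 73.8% and 73.8% in control. CCNE1 held 71.3% and 68.8% of the E-type sum in Bromo+/- and 71.7% and 74.4% in control. Apart from CCND2, at 0 in every library, no share overlapped between the groups, nor did the CPM of 75.2% of all tested genes. Shares of genes in the same sum depend on each other and are not separate results. For CCND1 and CCNE1, however, the gap between the nearest libraries was smaller than the spread within a group. An exact permutation test over libraries gave p = 0.33 (two-sided) for each share but that of CCND2. This is the smallest p that 2 against 2 allows.

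The summed TPM of the D-type cyclins was 249 and 240 in libraries labelled Bromo+/- and 248 and 256 in control libraries, with overlapping groups. That of the E-type cyclins was 49.3 and 46.9 in Bromo+/- and 31.2 and 32.7 in control. The ratio of E-type to D-type TPM was therefore 0.198 and 0.196 in libraries labelled Bromo+/-, against 0.126 and 0.128 in control libraries. The ratio of D-type cyclins to the 3 inhibitors CDKN1B, CDKN1C and CDKN2C was 4.06 and 4.05 in Bromo+/- and 5.71 and 5.43 in control. Left out of that sum were CDKN1A, far above it at 699 TPM in Bromo+/- and 525 TPM in control, and CDKN2D (15.7 and 27.5 TPM). Each of these 2 ratios separated the groups with the same exact permutation p of 0.33.

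**Figure D4:**
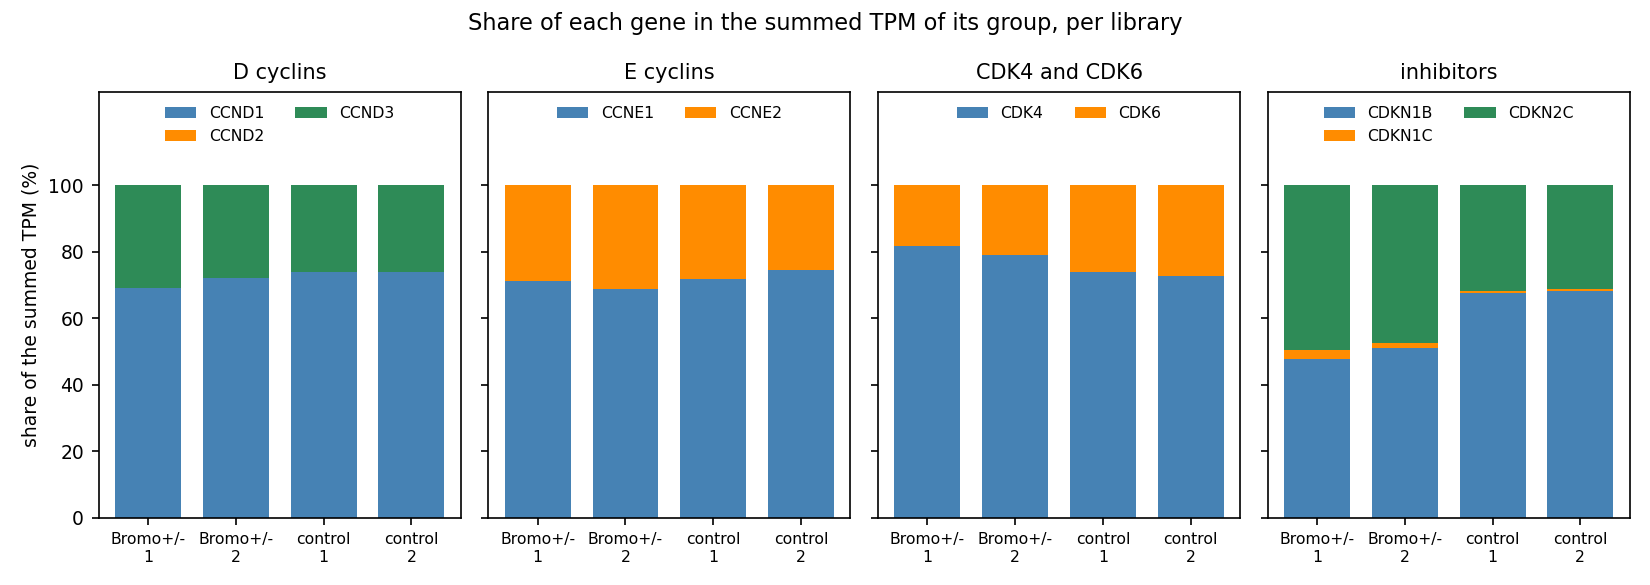
Share of each gene in the summed TPM of its group (y axis, percent) in the 2 Bromo+/- libraries (left) and the 2 non-target control libraries (right). CDKN2C holds 49.7% and 47.3% of its group in the Bromo+/- libraries and 31.8% and 31.3% in control libraries.

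The machinery that the G1 kinases act on had members on both sides. In a list of 21 genes of the RB and E2F switch, 20 were tested, 3 rose, 8 fell and 9 were not called, and the median difference was -0.09 on the log2 scale. The 55% called is near the 53.5% of all tested genes. The rises were RB1, the retinoblastoma gene (0.25, adjusted p = 0.000848), TFDP2, a dimer partner of E2F (0.43, adjusted p = 1.82e-05), and E2F5 (0.60, adjusted p = 0.000373), whose exons overlap RBIS. The falls were led by CCNC, cyclin C of the Mediator kinase module (-0.96, adjusted p = 1.52e-29), and CDC25A, the phosphatase that activates CDK2 (-0.45, adjusted p = 6.69e-10). CDK2 itself (-0.05), E2F1 (-0.10) and RBL1 (-0.07) did not pass. RB1 lost its call without Bromo+/- replicate 2 (adjusted p = 0.242) and also when control replicate 1 was left out (adjusted p = 0.098). The number of falls in the list was 5 without Bromo+/- replicate 1 and 4 without control replicate 1.

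Of 22 tested genes that take part in degrading G1 cyclins and p27, 4 rose, 7 fell and 11 did not pass (median -0.04). The 50% called is near the 53.5% of all tested genes. CUL4B, a cullin scaffold, rose to 2535 and 2496 counts in libraries labelled Bromo+/-, against 799 and 915 in control libraries (1.46, adjusted p = 1.21e-64). SKP2, the F-box protein that marks p27 for degradation, rose (0.33, adjusted p = 3.55e-05), while CKS1B, its cofactor for p27, fell (-0.45, adjusted p = 1.64e-05). GSK3B, a kinase that marks cyclin D1 for export and degradation, fell (-0.45, adjusted p = 5.57e-10). The other rises were DDB1 (0.17) and RNF123 (0.27), whose exons overlap those of other genes and whose calls ended without control replicate 2 (DDB1, adjusted p = 0.127) and without control replicate 1 (RNF123, adjusted p = 0.138). DESeq2's Wald test did not call RNF123 (adjusted p = 0.106). FBXW7, the F-box protein for cyclin E, did not pass (0.01, adjusted p = 0.966). In place of 7 falls there were 4 without control replicate 1, and likewise 4 without control replicate 2.

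Of 10 tested genes of the DREAM and MuvB complexes, which hold cell cycle genes off in quiescence and on in mitosis, 2 rose, 2 fell and 6 did not pass (40% called, beside 53.5% of all tested genes, median 0.09). The transcription factor FOXM1 rose (0.30, adjusted p = 1.97e-06; its exons overlap ITFG2), as did RBBP4 (0.19, adjusted p = 0.00505). MYBL2 (-0.22, adjusted p = 0.000196) and LIN52 (-0.50, adjusted p = 0.000514) fell. DESeq2's Wald test did not call RBBP4 (adjusted p = 0.0597). RBBP4 also lost its call without control replicate 2 (adjusted p = 0.284) and MYBL2 without control replicate 1 (adjusted p = 0.0712). The fit without control replicate 2 had 1 rise and 2 falls, that without control replicate 1 had 2 rises and 1 fall.

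Transcription factors known to act on CCND1 or CDKN1B had members on both sides. Of 27 tested, 14 fell, 5 rose and 8 did not pass (70.4% called, beside 53.5% of all tested genes, of which 26.4% were higher and 27.1% lower, median -0.26). Led by FOS, a subunit of AP-1 (-2.41, adjusted p = 1.21e-55), and by ETS1 (-0.99, adjusted p = 4.41e-42) and ETS2 (-1.05, adjusted p = 1.98e-34), targets of RAS signalling, the falls also took in MYC (-0.37, adjusted p = 5.24e-11). The rises were FOXO1, a factor that activates CDKN1B (1.17, adjusted p = 5.47e-27), EGR1 (0.50), ATF2 (0.65), STAT5A (0.73, adjusted p = 0.0343) and STAT5B (0.18, adjusted p = 0.0489). STAT5A and STAT5B were not called without Bromo+/- replicate 1 or 2 or control replicate 1 (adjusted p of 0.0788 to 0.417), nor STAT5B without control replicate 2 (adjusted p = 0.271). Leaving out each of the first 3 libraries gave 3 rises. Neither was called with the DESeq2 Wald test (adjusted p = 0.272 for STAT5A and 0.251 for STAT5B) or without the filter (0.0621 for STAT5A and 0.111 for STAT5B). STAT5B also lost its call in edgeR with the size factors of DESeq2 (adjusted p = 0.0536) and in limma-voom (adjusted p = 0.0509). It kept that call in 4 of 12 alternatives.

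Most tested transcripts of S phase were not called. Of 35 tested E2F target genes of S phase, 2 rose, 11 fell and 22 did not pass (37.1% called, beside 53.5% of all tested genes, median -0.08). TYMS, thymidylate synthase, rose (0.80, adjusted p = 2.84e-29), with 18.8% of its exon bases shared with ENOSF1. CDC6 (-0.43, adjusted p = 1.60e-11) and CDC45 (-0.42, adjusted p = 1.91e-08), which load and fire replication origins, fell. Of 14 tested cyclins, kinases and related genes of S, G2 and M phase, 8 fell and CDC25C rose. That made 64.3% called, beside 53.5% of all tested genes, with a median of -0.13. CCNA1, cyclin A1, fell by 0.99 on the log2 scale (adjusted p = 6.01e-16), PKMYT1, a kinase that holds CDK1 inactive, fell by 0.69 (adjusted p = 3.92e-18; its exons overlap PAQR4) and WEE1, which does the same, fell by 0.55 (adjusted p = 4.08e-10). MKI67, a marker of cycling cells, fell to 921 CPM in libraries labelled Bromo+/- on average, against 1108.9 CPM in control libraries (-0.27, adjusted p = 1.33e-06). The 8 falls were 5 without Bromo+/- replicate 2 or control replicate 2 and 4 without control replicate 1. CDC25C lost its call without Bromo+/- replicate 2 or either control replicate (adjusted p of 0.0958 to 0.207), in DESeq2's Wald test (adjusted p = 0.206) and without the filter (adjusted p = 0.0651).

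**Figure D5:**
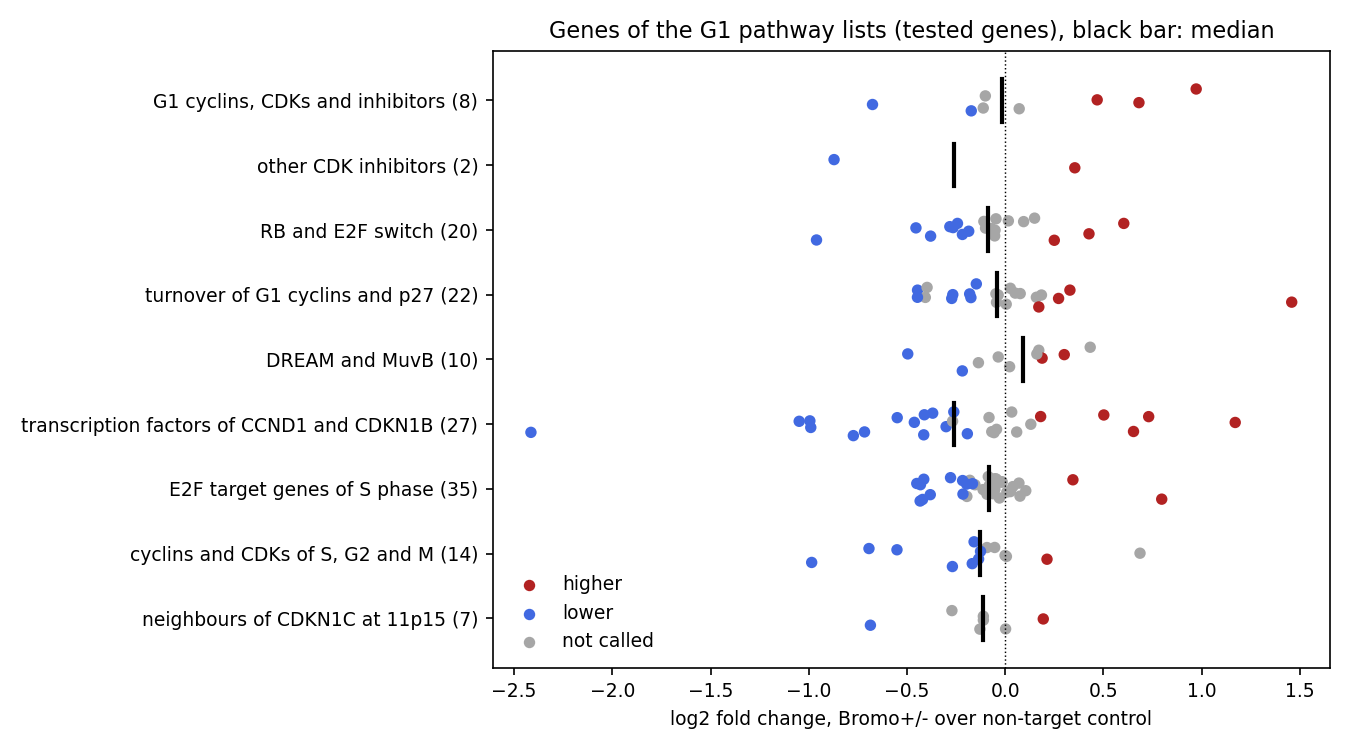
Log2 fold change of Bromo+/- over non-target control (x axis) of each tested gene in the G1 lists (rows, number tested in brackets). Red is called higher, blue called lower, grey not called, and the black bar is the median. The medians lie between -0.26 and 0.09, and the widest spread is among the transcription factors, with FOS at -2.41.

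The other cyclin and CDK genes were grouped by symbol, a grouping added after the data were seen. Of 24 tested genes with a cyclin symbol outside the G1 set, 3 rose and 8 fell. They include CCNDBP1, which encodes a cyclin D binding protein rather than a cyclin and was not called. Of 18 tested CDK genes outside the set, 2 rose and 6 fell. Among all tested genes 26.4% were higher and 27.1% lower. CCNG1, a p53 target, rose by 0.51 and CCNG2 fell by 1.20 on the log2 scale. CDK5, a kinase best known from neurons, rose by 0.96. Among these cyclins CCNL2 and CCNI were the other rises, and among the CDKs CDK19.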

How the data were processed

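RNA-seq counts of 4 MCF10AT libraries were used. The authors deposited a table of raw counts, one row per Ensembl gene, with exon coordinates and lengths. The submitters' processing notes name STAR, with no version, featureCounts 1.5.2 and the build GRCh38. Libraries were made with a stranded mRNA kit, per the labels' protocols. Neither the annotation release nor the strand and multi-mapping settings of the counting are stated in the sources used here. Columns were matched to samples by name: Br abbreviates Bromo, WT was taken as the non-target control, and no column was left over. A table of current symbols named 57392 genes, GENCODE v29 a further 503, and 338 had no name.

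Groups were compared in R 4.3.3 with edgeR 4.0.16 (filterByExpr, 13179 genes tested, trimmed mean of M values scaling, robust quasi-likelihood test, Benjamini-Hochberg adjustment over all tested genes). CPM are counts relative to scaled library size, and TPM come from counts divided by the exon length of the deposited table. Long untranslated regions count in that length. With totals between 10835237 and 11975396, a count of 3 equals 0.244 to 0.286 CPM. Replicates correlated at 0.995 in each group (log2 CPM, across genes), and no library was a copy of another, with a chi-square per degree of freedom of 2.44 within Bromo+/- and 1.56 within control.

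The G1 genes and the lists (153 entries, all found) were chosen with earlier results of these data known. The text names the 10 G1 genes, 4 other inhibitors, EP300, genes overlapping them, the 11p15 list, up to 3 called genes of smallest adjusted p per other list, and genes spelled out of a count of 5 or fewer. Others were named after their values were seen. Among them are CDK2, E2F1, RBL1, FBXW7, MYC, MKI67, the neighbours of CCND2, CDKN2A and CDKN2C, and the family genes. The test was checked on simulated data. It recovered 50% of genes given a log2 change of 0.3, 71.4% at 0.5, 88% at 1 and 100% at 2. Of genes given no change it called 0.0472%. Small changes can therefore be missed. In the simulation 12718 of 12915 genes had no change, whereas 53.5% of tested genes were called in the deposited data. The rates may thus differ in the fit of the deposited data. Alternatives were DESeq2 1.42.0 (size factors and Wald test), limma 3.58.1 (voom), other scalings and filters, a replicate block, and leaving out each library. A few listed genes are not reported here.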

Additional observations from a re-analysis of the deposited data

How the results depend on the processing

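Calls of CDKN2C, CCNE1, CCNE2 and CDK6 held in all 12 alternatives, and CDKN1B was called in none. The number of G1 genes called lower was 1, in place of 2, by upper quartile scaling and by library totals alone, where CCND1 was not called. With the replicate number as a block, 3 G1 genes were higher and 2 lower, as without it, 3570 genes were higher and 3701 lower over all genes, and the 11p15 list had 2 genes lower. The deviations of the libraries numbered 1 in each group correlated at 0.0484 across genes, and no label ties the numbers. Leaving out a library gave 3 to 5 G1 genes higher and 1 to 3 lower, where 5 adds CCND3 and CDKN1C, which passed the filter in that fit through Bromo+/- replicate 1. Over all genes it gave 2690 to 3218 higher and 2878 to 3423 lower.

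Library totals alone gave 4 lower for each of the RB and E2F, the turnover and the S, G2 and M lists, and 4 E2F targets higher. Upper quartile scaling gave 4 lower for the S, G2 and M list. The DESeq2 Wald test called 2292 genes higher, 4 lower in the RB and E2F list, 1 higher in DREAM and MuvB, 3 higher among the transcription factors and 0 higher in the S, G2 and M list, where edgeR had 1 and the Wald test also had 0 at an unadjusted p under 0.05. Without the low-count filter edgeR called 3 transcription factors higher, 0 of the S, G2 and M list higher (1 at an unadjusted p under 0.05) and 2 of the 11p15 list higher. Leaving out a library gave 4 to 8 lower (RB and E2F), 4 to 6 lower (turnover), 1 to 2 higher and 1 to 3 lower (DREAM and MuvB), 3 to 4 higher (transcription factors), 0 to 1 higher and 4 to 8 lower (S, G2 and M), and 0 to 1 higher and 1 to 2 lower (11p15). The counts of 0 in these edgeR fits became 0 or 1 at an unadjusted p under 0.05. The cause of these moves was not tested.

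Log2 fold changes near 0 changed sign in some settings, and none of the values with the turned sign was called. CARS1 was -0.00118 with the size factors of DESeq2, -0.00135 in its Wald test and -0.00819 without the filter. TSPAN31 was 0.0212 by upper quartile scaling and 0.0452 by library totals alone. With a library left out, CCND3 ran over -0.0526 to 0.179, INTS8 over -0.0226 to 0.0533, TSPAN31 over -0.234 to 0.156, KCNQ1OT1 over -0.371 to 0.0901, CARS1 over -0.0383 to 0.0297 and TSSC4 over -0.251 to 0.00599. The share of CDK6 among CDK4 and CDK6 differed by -9.81 percentage points in counts not divided by length, against -6.98 per length. At this depth CCND2, CDKN2A and CDKN2B are bounded only by the floors given, and CDKN1C rests on 26 counts.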
